A study of Oryza sativa Japonica Group with 22 samples.

Results

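The genes described here are 7 rice genes that bring sucrose into the filling grain and cleave it there. They were SUT1 (Os03g0170900), SWEET11 (Os08g0535200), SWEET15 (Os02g0513100), the cell wall invertase gene GIF1 (Os04g0413500) and 3 sucrose synthase genes, which are given by their identifiers Os03g0401300, Os06g0194900 and Os07g0616800. They were chosen by identifier, as 7 of the 38866 genes in the count tables, and all 7 were among the 26821 genes with enough reads to be tested. Their transcripts were measured by RNA-seq in milkripe seeds, harvested by panicle 10 days after flowering, in 22 libraries from individual plants. The lines were the untransformed japonica parent Taipei 309 (Taipei, n = 4 libraries) and 5 transgenic lines made in it. SSA (n = 3) carried the sunflower 2S albumin gene HaSSA with an ER retention signal, driven in the endosperm by a wheat glutenin promoter. CGS (n = 5) carried AtD-CGS, a feedback-desensitized cystathionine gamma-synthase from Arabidopsis, and SAT (n = 3) carried EcSAT, the serine acetyltransferase cysE of E. coli. Both enzymes were sent to plastids and driven by a maize ubiquitin promoter, and each of these lines was a single transformant line. CGS × SSA (n = 4) and SAT × SSA (n = 3) were double transgenic lines from crosses with SSA as the pollen donor. The study joined 2 segregants of each cross into a line, and the libraries are not told apart by segregant in their labels.

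Sucrose reaches the rice grain through the phloem of the maternal tissues and has no direct cell connection into the endosperm. The SWEET proteins are sugar uniporters that release sucrose from cells, SUT1 is a sucrose-proton symporter that takes it up again, and cell wall invertase splits sucrose in the cell wall space into glucose and fructose. Inside the endosperm, sucrose synthase cleaves sucrose to UDP-glucose and fructose, which is the entry to starch synthesis.

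Counts on the annotated strand summed to 29642343 to 41585957 per library. The share of unmapped reads was 0.630% to 0.920% in the 12 libraries without HaSSA and 2.87% to 8.07% in the 10 libraries with it. Levels are given as CPM, the count of a gene relative to the library total after TMM scaling, and the TMM factors were 0.844 to 1.02 without HaSSA and 1.00 to 1.15 with it. All 8 starchy endosperm markers were detected in each line, with a summed level of 77558 to 129412 CPM in libraries without HaSSA and 26381 to 59536 CPM in libraries with it. This sum was carried by 3 markers with mean levels of 9305, 24496 and 31191 CPM, listed as storage protein genes (alpha-globulin and glutelins). Their log2 levels differed by -1.41 to -1.20 with HaSSA on average over the backgrounds, while the other 5 markers differed by -0.31 to 0.10. The 7 genes had 1517 to 72398 reads in a library, so none of them was near a detection limit. Libraries of a line came from individual plants, per the study, so the p-values cover the spread between plants and not between independent transformants. In whole seeds, fewer cells of a type and less RNA per cell cannot be told apart. Levels are not compared between genes, because no transcript lengths were used. The share of all genes without overlap between lines was not counted, so a lack of overlap is given as description only.

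Averaged over the differences SSA minus Taipei, CGS × SSA minus CGS and SAT × SSA minus SAT, SUT1, SWEET11 and SWEET15 fell and GIF1 rose, while none of the 3 sucrose synthase genes passed the threshold. This made 4 of 7 genes called at an adjusted p under 0.01, against 12.3% of all 26821 genes tested (6.14% higher and 6.11% lower). The single backgrounds were not all alike, since SWEET11 had a log2 difference of 0.17 with AtD-CGS and SWEET15 one of -0.03 without an enzyme transgene. The 3 falls were called with TMM scaling and not with the library size alone, where GIF1 was the only one called (38.5% of all genes). The plot of levels gives each library.

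**Figure D1:**
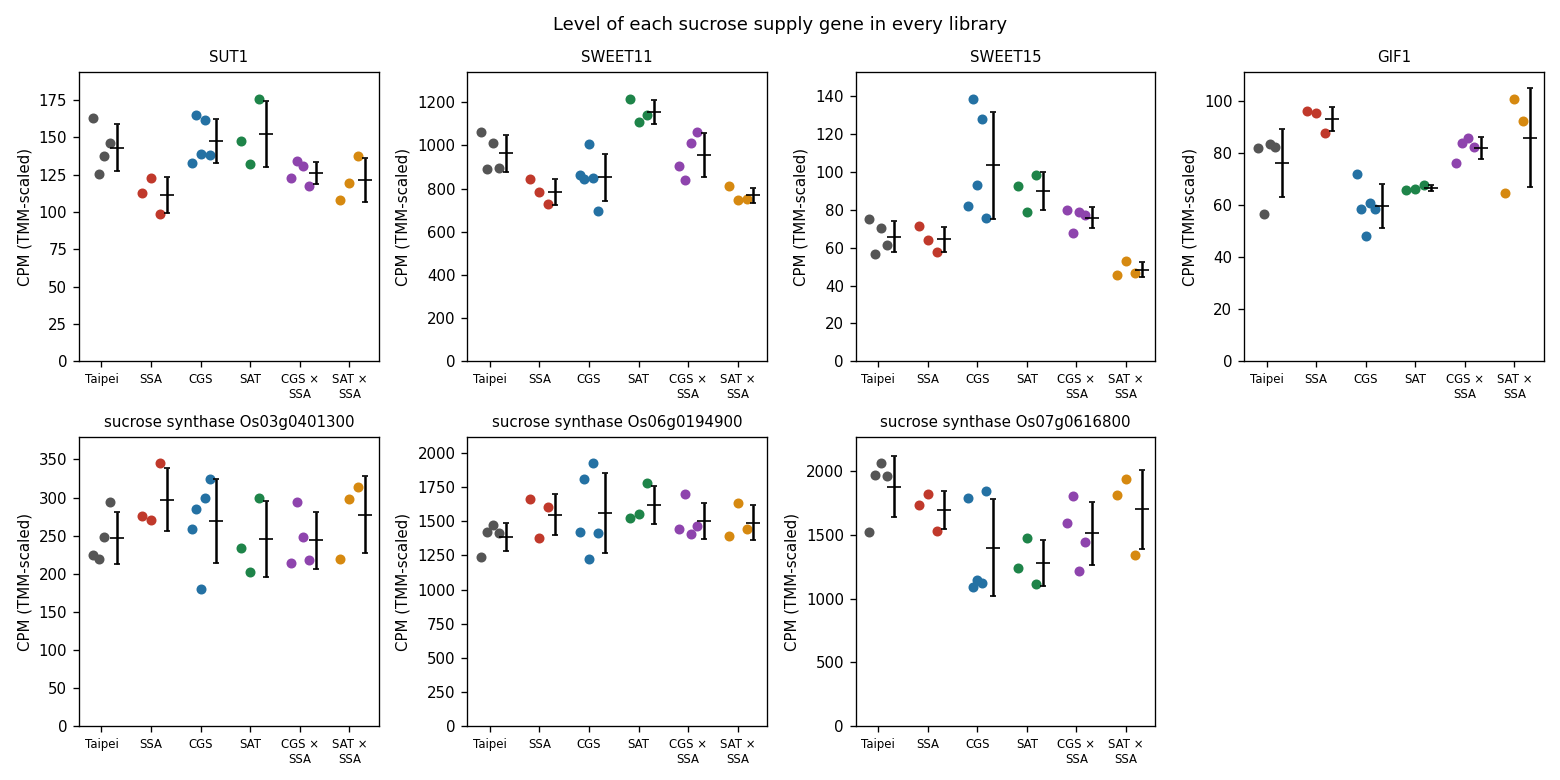
Level of each of the 7 genes (CPM after TMM scaling, y axis from 0) in every library of the 6 lines (x axis). Points are libraries, and the bar beside them is the mean ± SD. SUT1 lay at 99.0 to 137 CPM in the 10 libraries with HaSSA and at 126 to 176 CPM in the 12 without, while the 3 SAT × SSA libraries held the lowest SWEET15 levels (45.8 to 52.9 CPM).

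SUT1, which loads sucrose from the cell wall space into the aleurone and endosperm, had levels of 163, 126, 138 and 146 CPM in Taipei. In SSA they were 113, 123 and 99.0 CPM, below every Taipei library. In CGS they were 133, 165, 139, 162 and 138 CPM, and in SAT 148, 132 and 176 CPM. The double lines had lower values, with 123, 134, 131 and 117 CPM in CGS × SSA and 108, 119 and 137 CPM in SAT × SSA. The 10 libraries with HaSSA had a median of 121 CPM and the 12 without a median of 142 CPM, and their ranges overlapped between 126 and 137 CPM. The log2 difference with HaSSA was -0.36 ± 0.11 (SE) in the Taipei background, -0.22 ± 0.10 with AtD-CGS and -0.32 ± 0.12 with EcSAT. None of these passed alone (adjusted p = 0.0631, 0.163 and 0.0741, edgeR quasi-likelihood test with Benjamini-Hochberg adjustment). Their mean was -0.30 ± 0.06, a level 0.811 times that without HaSSA (95% interval 0.74 to 0.889, adjusted p = 0.00181, same test). This call was kept without each of the 22 libraries in turn.

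GIF1 is known from rice mutants with poorly filled grains, and its protein acts in the cell wall space of the sugar unloading tissue. It had 82.1, 56.5, 83.6 and 82.5 CPM in Taipei and 96.1, 95.6 and 87.9 CPM in SSA, so that every SSA library lay above every Taipei library. In CGS the values were 72.0, 58.5, 48.3, 61.0 and 58.7 CPM, and in CGS × SSA 76.1, 84.0, 85.7 and 82.2 CPM, again without overlap. No share of all genes without overlap was counted for either pair of lines. The SAT libraries were close together at 65.9, 66.1 and 67.9 CPM. The SAT × SSA libraries were at 64.5, 101 and 92.2 CPM, with replicate 1 below all SAT libraries. The log2 difference with HaSSA was 0.29 ± 0.14 (SE), 0.46 ± 0.12 and 0.37 ± 0.15 in the backgrounds of Taipei, CGS and SAT (adjusted p = 0.252, 0.0207 and 0.106, edgeR quasi-likelihood test with Benjamini-Hochberg adjustment). The mean of the 3 was 0.37 ± 0.08, which is 1.29-fold (95% interval 1.15 to 1.45, adjusted p = 0.00207, same test), and it too was called without each library in turn.

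**Figure D2:**
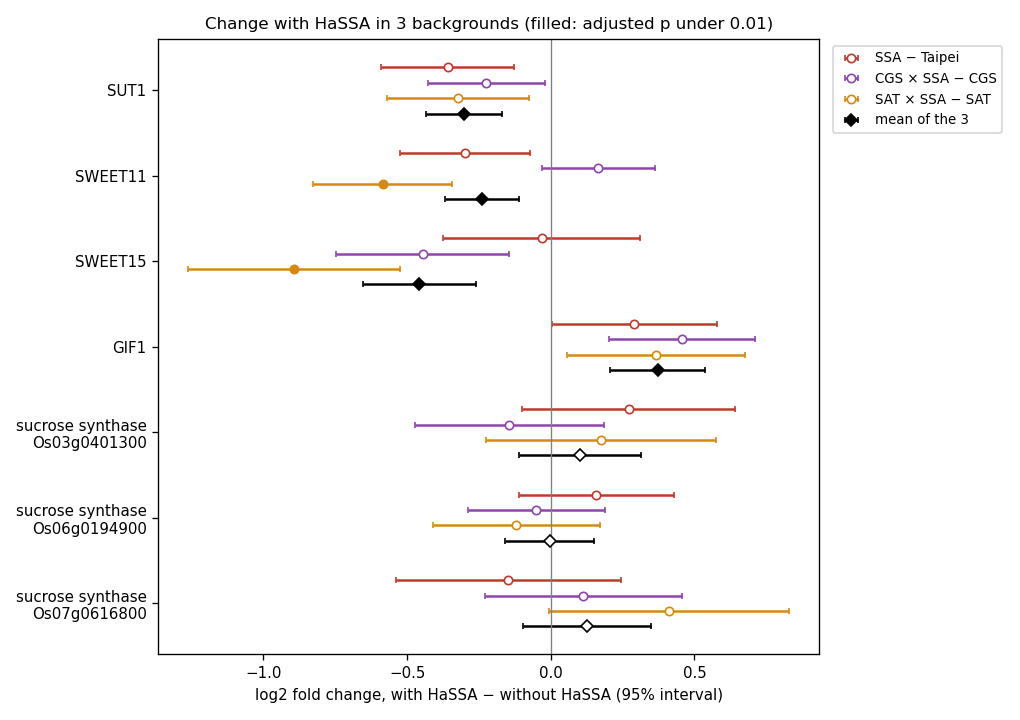
Log2 fold change of each gene with HaSSA against without it (x axis) in the background of Taipei, CGS and SAT and as the mean of the 3, with 95% intervals. Filled symbols have an adjusted p under 0.01. The means of SUT1, SWEET11 and SWEET15 lie at -0.30, -0.24 and -0.46, that of GIF1 at 0.37, and those of the sucrose synthase genes between -0.00 and 0.13.

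SWEET15, which is expressed in the nucellus and aleurone of rice grains and acts in part redundantly with SWEET11, had 75.1, 56.7, 70.4 and 61.2 CPM in Taipei and 71.2, 64.2 and 57.8 CPM in SSA. These groups overlapped fully, with a log2 difference of -0.03 ± 0.16 (SE). In CGS it had 81.9, 139, 93.2, 128 and 75.5 CPM and in CGS × SSA 79.8, 67.8, 78.7 and 77.2 CPM, a difference of -0.45 ± 0.15 (adjusted p = 0.0587, edgeR quasi-likelihood test with Benjamini-Hochberg adjustment). The SAT libraries held 92.6, 79.0 and 98.2 CPM, and the SAT × SSA libraries 45.8, 52.9 and 46.7 CPM, below the libraries of the other 5 lines. How many of all genes set a line apart in this way was not counted. The mean difference with HaSSA was -0.46 ± 0.09 (0.729-fold, 95% interval 0.636 to 0.835, adjusted p = 0.00173, same test), and it was called without each library in turn.

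SWEET11, the other sugar uniporter, is expressed in the maternal tissue of the young rice caryopsis. Its levels were 1061, 890.4, 1012 and 893 CPM in Taipei and 843, 782 and 726 CPM in SSA, with no overlap. In CGS they were 863, 844, 1006, 849 and 694 CPM, and in CGS × SSA 904, 841, 1012 and 1063 CPM, so that these ranges overlapped. In SAT they were 1216, 1106 and 1142 CPM, above every library of the other lines. In SAT × SSA they were 810.0, 749 and 751 CPM, below every Taipei and SAT library. Genes that separate lines like this were not counted over all genes. The log2 difference with HaSSA was -0.30 ± 0.11 (SE) without an enzyme transgene, 0.17 ± 0.10 with AtD-CGS and -0.58 ± 0.12 with EcSAT, so the mean of -0.24 ± 0.06 (adjusted p = 0.00777, edgeR quasi-likelihood test with Benjamini-Hochberg adjustment) joins differences of unlike sign. This call was the least steady of the 4: it was kept in 8 of 22 fits that left out 1 library, with adjusted p-values up to 0.0212.

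The falls depend on the scaling of the libraries. With the library size alone, without TMM, the median log2 difference of all 26821 genes between seeds with and without HaSSA was 0.23 in place of 0.00, and the share of higher genes among the calls was 96.5% in place of 50.1%. In that setting 38.5% of all genes were called, in place of 12.3%. GIF1 was then the only one of the 7 called, at 0.60, and SUT1 had -0.07 (adjusted p = 0.290), SWEET11 -0.01 (adjusted p = 0.877) and SWEET15 -0.22 (adjusted p = 0.0212). Relative to the median of all genes, the values were -0.30, -0.24, -0.45 and 0.37 for SUT1, SWEET11, SWEET15 and GIF1 without TMM, and -0.30, -0.24, -0.46 and 0.37 with it. Over the alternatives for this mean other than leaving out a library, the adjusted p-values ran from 0.000148 to 0.290 for SUT1, from 0.000911 to 0.877 for SWEET11, from 4.68e-05 to 0.0212 for SWEET15 and from 1.31e-05 to 0.00779 for GIF1. The lowest values came from DESeq2 for SUT1, SWEET11 and SWEET15 and from the fit without TMM for GIF1, and the others from edgeR.

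Markers of other tissues moved with some of these comparisons. Of the 8 starchy endosperm markers, 3 fell and 0 rose in the mean difference with HaSSA, with a median of -0.26. The 3 were the alpha-globulin and glutelin genes with the high levels given above. The 4 embryo and aleurone markers had a median of -0.24 and the 6 green tissue markers a median of 0.02, with 0 called in either list. The single nucellus marker lay at 0.06. The part of these markers in the results for the 7 genes was not tested.

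In a library, the ratio of GIF1 to SUT1 reads does not depend on the scaling. Only the differences of this log2 ratio between lines can be read, since its absolute value also holds the lengths of both transcripts. Taipei had a ratio of -0.92 ± 0.19 (SD, n = 4) and SSA of -0.26 ± 0.10 (n = 3). CGS had -1.31 ± 0.26 (n = 5), while CGS × SSA stood at -0.62 ± 0.08 (n = 4). For SAT it was -1.18 ± 0.19 (n = 3), which compares with -0.52 ± 0.26 (n = 3) for SAT × SSA. Each line with HaSSA lay wholly above its own background line. GIF1 was called higher and SUT1 lower with HaSSA in these same libraries, so this separation adds no separate support. The share of gene pairs that separate in this way was not counted. Over the series the ranges met at one end, -0.74 to -0.17 with HaSSA against -1.52 to -0.72 without it. The ratio of SWEET15 to SWEET11 reads followed the lines in another way. Taipei stood at -3.88 ± 0.07 (SD over the same libraries), SSA at -3.61 ± 0.04 and CGS at -3.07 ± 0.38. SAT stood at -3.69 ± 0.14, with -3.65 ± 0.12 for CGS × SSA and -3.99 ± 0.16 for SAT × SSA. All 5 CGS libraries (-3.43 to -2.61) lay above the libraries of the other lines (-4.15 to -3.50).

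**Figure D3:**
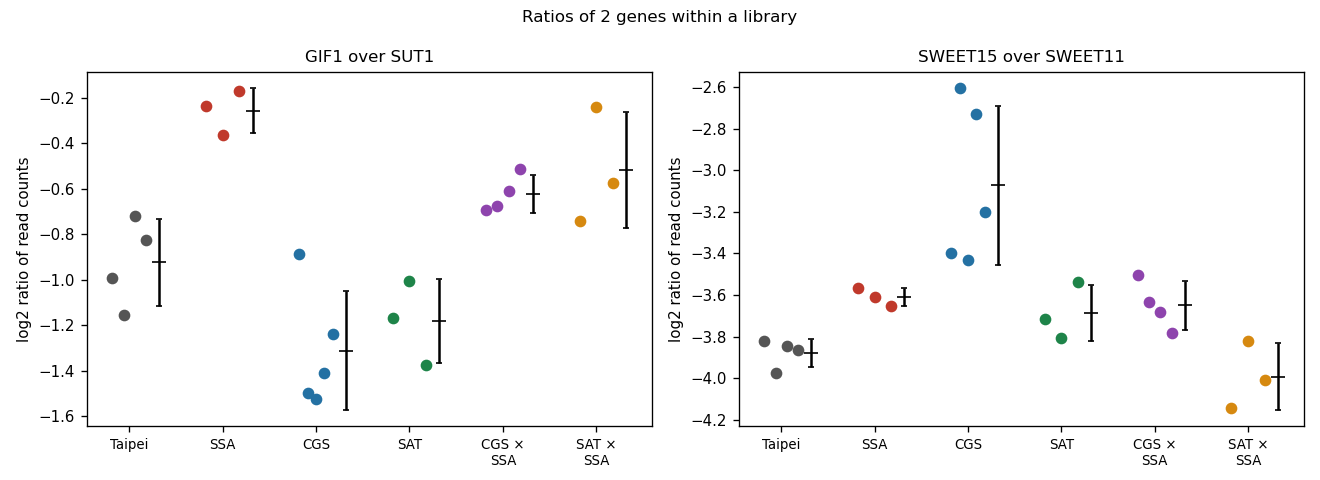
Log2 ratio of the read counts of GIF1 to SUT1 (left) and of SWEET15 to SWEET11 (right) within each library, by line. Points are libraries and the bars are mean ± SD. The GIF1 to SUT1 ratio is -0.74 to -0.17 in libraries with HaSSA, and the SWEET15 to SWEET11 ratio is highest in CGS (-3.43 to -2.61).

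In the double line with EcSAT, both SWEET genes fell against its own background. From SAT to SAT × SSA, SWEET15 fell from 90.0 ± 9.87 (SD, n = 3) to 48.4 ± 3.89 CPM (n = 3), and SWEET11 fell from 1155 ± 55.9 to 770 ± 34.7 CPM. The log2 changes were -0.89 ± 0.18 (SE, 0.539-fold, adjusted p = 0.00362) and -0.58 ± 0.12 (0.667-fold, adjusted p = 0.00344) in the edgeR quasi-likelihood test with Benjamini-Hochberg adjustment. Thus 2 of the 7 genes were called, both lower, against 4.25% of all genes (2.66% lower). With 1 library left out, some of the calls were lost while the fold changes moved little. Neither gene was called without SAT replicate 1 or without replicate 1 or 2 of SAT × SSA, and SWEET15 was also lost without SAT replicate 3. Over these fits the adjusted p was at most 0.0214 for SWEET11 and 0.0212 for SWEET15, and the log2 changes stayed at -0.62 to -0.55 and -0.98 to -0.82. Replicate 1 of SAT × SSA also had the largest share of reads that met no annotated gene on the counted strand (20.3%, against 11.8% in the lowest library). Without TMM, GIF1 was called (0.65, adjusted p = 0.00501) and SWEET11 was not (-0.30, adjusted p = 0.0322), and the median of all genes was 0.30. In that fit 17.2% of all genes were called. Relative to the median of all genes, GIF1, SWEET11 and SWEET15 stood at 0.36, -0.60 and -0.90 without TMM. With TMM these values were 0.35, -0.60 and -0.91.

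Beside these changes, the 4 embryo and aleurone markers had a median log2 difference of -0.78 in SAT × SSA against SAT, with 0 of 4 called. Singly they had -0.80, -0.79, -0.77 and -0.09, at mean levels of 1354, 1594, 69.1 and 11.4 CPM over all libraries. Their summed levels were 1935 to 2595 CPM against 3708 to 3829 CPM. Starchy endosperm markers had a median of -0.41, with 2 of 8 fallen. The part of either in the SWEET result was not tested.

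Whether HaSSA acted differently in an EcSAT background was tested directly as an interaction. For SWEET15 the difference of the differences was -0.86 ± 0.24 (SE, unadjusted p = 0.00186), and for SWEET11 it was -0.29 ± 0.16. After adjustment over all genes SWEET15 stood at 0.114 in the edgeR quasi-likelihood test with Benjamini-Hochberg adjustment. It was the only one of the 7 with an unadjusted p under 0.05 (13.2% of all genes), and 0 of 7 were called (0.25% of all genes). The same interaction with AtD-CGS called 0 of 7 (0.38% of all genes), and here SWEET11 alone had an unadjusted p under 0.05 (15.2% of all genes), at 0.46 ± 0.14 (adjusted p = 0.120). DESeq2 called 0 of 7 in both (0.791% of all genes with EcSAT and 1.12% with AtD-CGS).

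The enzyme transgenes without HaSSA were compared with Taipei to see what each did alone. SWEET15 averaged 103 ± 28.2 CPM (SD, n = 5) over the CGS libraries, where Taipei averaged 65.8 ± 8.39 CPM (n = 4). It rose by 0.65 ± 0.15 on the log2 scale (SE, 1.57-fold, 95% interval 1.27 to 1.94, adjusted p = 0.0076, edgeR quasi-likelihood test with Benjamini-Hochberg adjustment), and all 5 CGS libraries exceeded the highest Taipei library, the nearest by 75.5 against 75.1 CPM. It was the 1 gene of 7 called, against 3.69% of all genes (2.34% higher). In CGS, GIF1 had -0.35 ± 0.12 (adjusted p = 0.0749) and Os07g0616800 had -0.42 ± 0.16 (adjusted p = 0.110), neither past the threshold.

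The SWEET15 call in CGS rests on a pair of libraries. CGS replicates 2 and 4 held 139 and 128 CPM, and the other 3 held 75.5 to 93.2 CPM. The same pair also had the highest Os06g0194900 levels of the series (1806 and 1922 CPM, against 1226 to 1419 CPM in the other CGS libraries) and low Os07g0616800 levels (1092 and 1124 CPM), which replicate 3 shared (1147 CPM). These were the most alike libraries of any line over all genes, with a chi-square of 4.63 per degree of freedom against 10.0 for the next pair, still above sampling noise, and they were kept as separate samples. Without both, SWEET15 was 0.34 higher in CGS than in Taipei (adjusted p = 0.0698). The call was also lost without CGS replicate 2 or 4 alone, without Taipei replicate 2, 3 or 4, and with only Taipei and CGS in the fit, and the adjusted p ran from 0.000497 (DESeq2) to 0.0698 over all alternatives. Green tissue markers were higher in CGS by a median of 0.38 (3 of 6 rose, summed level 4355 to 5050 CPM against 3449 to 3885 CPM in Taipei), and their part in this result was not tested.

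**Figure D4:**
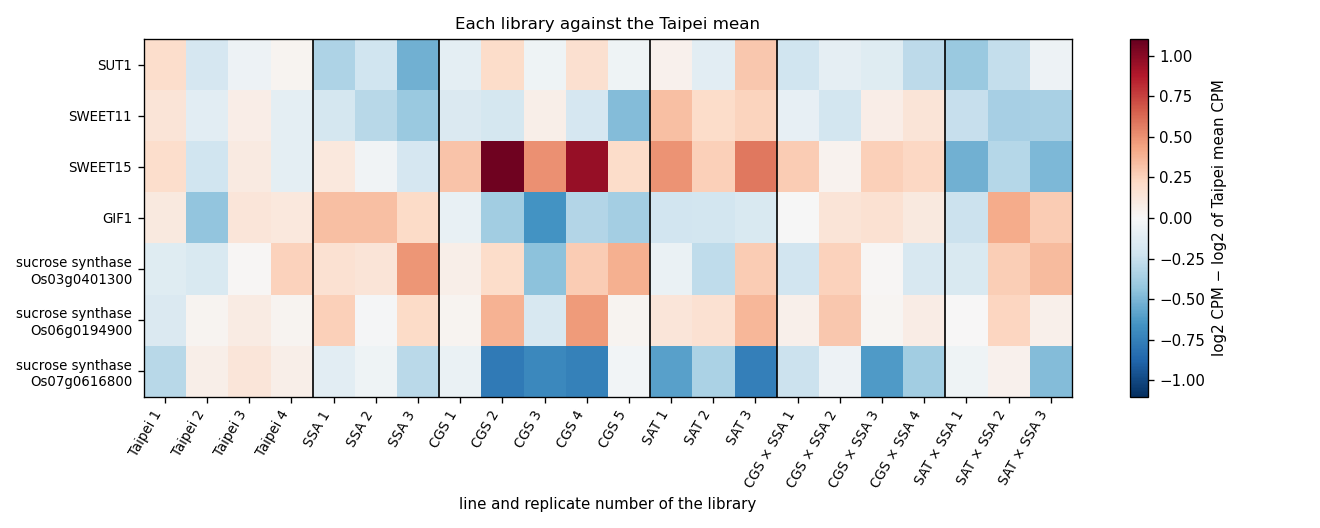
Log2 CPM of each gene in each library minus the log2 of its Taipei mean (colour, red for higher). Columns are the 22 libraries by line and replicate number, and rows are the genes. SWEET15 is highest in CGS replicates 2 and 4 (139 and 128 CPM), where Os07g0616800 is at 1092 and 1124 CPM.

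In SAT against Taipei, 0 of 7 genes were called by edgeR's quasi-likelihood test or by DESeq2 (0.69% of all genes with edgeR, 1.86% with DESeq2), and 3 had an unadjusted p under 0.05 (16.5% of all genes). These were SWEET15 with 0.45 ± 0.16 (SE, adjusted p = 0.161), SWEET11 with 0.26 ± 0.11 (adjusted p = 0.224) and Os07g0616800 with -0.56 ± 0.19 (adjusted p = 0.134). The SAT libraries did not overlap with Taipei for any of these 3 genes, which were picked by p-values from the same libraries. The share of all genes without such overlap was not counted, so this adds no separate support. For Os07g0616800 the SAT libraries lay at 1239.6, 1471 and 1117 CPM, below all 4 Taipei libraries (1521, 1965, 2057 and 1958 CPM).

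The sucrose synthase genes passed the threshold in none of the 12 comparisons. Among them, Os07g0616800 varied most between lines, from a mean of 1876 ± 240.4 CPM (SD, n = 4) for Taipei down to 1276 ± 179.7 CPM (n = 3) for SAT. SSA averaged 1693 ± 150.0 CPM (n = 3), while the CGS mean was 1398 ± 379.9 CPM (n = 5). The double lines averaged 1512 ± 246 CPM for CGS × SSA (n = 4) and 1697 ± 312 CPM for SAT × SSA (n = 3). The CGS libraries formed a low set of 3 (1092, 1124 and 1147 CPM) and a high set of 2 (1785 and 1840.2 CPM). Its mean difference with HaSSA was 0.13 (95% interval -0.10 to 0.35). Os06g0194900 had its lowest line mean in Taipei (1386 CPM) and its highest in SAT (1618 CPM), with overlapping ranges, and a mean difference with HaSSA of -0.00 (95% interval -0.16 to 0.15). Os03g0401300 ranged from 180.3 to 345 CPM over all libraries, its line means lay between 244 CPM in CGS × SSA and 297 CPM in SSA, and its mean difference was 0.10 (95% interval -0.11 to 0.31). In Os03g0401300 and Os07g0616800 these intervals leave room for a rise about as large as the fall of SUT1 (-0.30). They do not reach a fall of that size. Equal levels were not shown.

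The 3 sucrose synthase genes can be counted only with strand. Each shares its place with a gene model on the opposite strand, Os03g0401333, Os06g0195025 and Os07g0616850. The unstranded count of Os03g0401300 was 4.51% to 6.66% of its anti-strand count, that of Os06g0194900 was 6.75% to 9.74%, and that of Os07g0616800 was 0.429% to 1.28%. In such unstranded counting, STAR gives a read that overlaps both genes to neither. The other 4 genes kept 100.1% to 101% of their counts. Read on the wrong strand, the 3 models held 93.9% to 97.4%, 90.4% to 93.3% and 98.7% to 99.6% of the synthases' reads. On their own strand they held 0 to 10, 12 to 57 and 48 to 96 reads per library. No sucrose synthase was called with unstranded counts either, but those values rest on a small part of the reads.

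**Figure D5:**
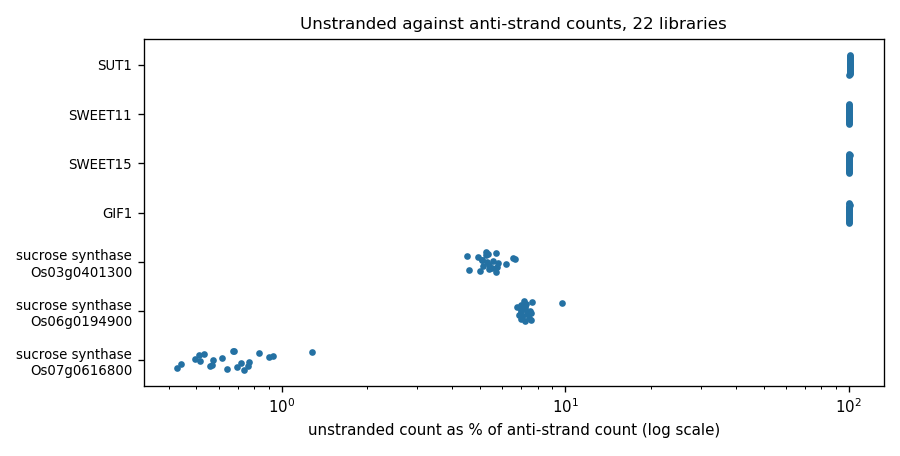
Unstranded count as a percent of the anti-strand count (x axis, log scale) for each of the 7 genes. Each point is 1 of the 22 libraries. The transporter and invertase genes lie at 100.1% to 101%, and the 3 sucrose synthase genes at 0.429% to 9.74%.

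SSA against Taipei called 0 of 7 genes (2.46% of all genes with edgeR's quasi-likelihood test, 3.84% with DESeq2, which also called 0 of 7). SUT1, SWEET11 and GIF1 had an unadjusted p under 0.05 (19.5% of all genes), each without overlap between the lines. How many of all genes lacked overlap here was not counted. CGS × SSA against CGS called 0 of 7 with edgeR (3.87% of all genes), with 3 at an unadjusted p under 0.05 (24% of all genes), namely SUT1, SWEET15 and GIF1. DESeq2 called GIF1 in that comparison (0.46, adjusted p = 0.00735, 6.02% of all genes called), edgeR called it at a threshold of 0.05 (9.06% of all genes), and the adjusted p of GIF1 ran from 0.00543 to 0.0848 over the alternatives.

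Against Taipei, CGS × SSA called 0 of 7 (1.08% of all genes with edgeR, 1.5% with DESeq2), with 0 at an unadjusted p under 0.05 (10.1% of all genes) and log2 differences of -0.31 to 0.21. SAT × SSA called 0 of 7 (1.22% with edgeR, 3.18% with DESeq2), with 3 at an unadjusted p under 0.05 (20.7% of all genes). These were SUT1 at -0.24 ± 0.11 (SE), SWEET11 at -0.32 ± 0.11 and SWEET15 at -0.44 ± 0.17, with adjusted p-values of 0.232, 0.0892 and 0.132 in the edgeR quasi-likelihood test with Benjamini-Hochberg adjustment. Against SSA, CGS × SSA called 0 of 7 (0.112% with edgeR, 0.244% with DESeq2) with SWEET11 alone at an unadjusted p under 0.05 (10.6% of all genes), at 0.29 ± 0.11. SAT × SSA called 0 of 7 against SSA (0.619% with edgeR, 0.858% with DESeq2) with SWEET15 alone at an unadjusted p under 0.05 (11% of all genes), at -0.41 ± 0.18. Comparisons that share a line share its libraries and are not independent of each other.

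Ordered by line mean, SUT1 ran from SAT (152 CPM) through CGS, Taipei, CGS × SSA and SAT × SSA to SSA (112 CPM), and each line overlapped with the next in this order. GIF1 ran from SSA (93.2 CPM) through SAT × SSA, CGS × SSA, Taipei and SAT to CGS (59.7 CPM), also with overlap at each step. For SWEET11 there was 1 gap between neighbours, from SAT (1155 CPM) to Taipei (964 CPM), and for SWEET15 1 gap, from SSA (64.4 CPM) to SAT × SSA (48.4 CPM). The 3 sucrose synthase genes had no gap between neighbouring lines. Gaps of this kind were not counted over all genes. The highest line mean was 2.14 times the lowest for SWEET15, 1.56 times for GIF1, 1.5 times for SWEET11, 1.47 times for Os07g0616800, 1.36 times for SUT1, 1.22 times for Os03g0401300 and 1.17 times for Os06g0194900.

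Within lines, some of the 7 genes varied together over the 22 libraries. On deviations from line means, Pearson's r was 0.62 for SUT1 with SWEET15 and 0.62 for Os03g0401300 with Os06g0194900. It was -0.64 for SWEET15 with Os07g0616800, -0.64 for SWEET11 with Os03g0401300 and -0.54 for SUT1 with Os07g0616800. SUT1 and GIF1 had r = -0.38 over all libraries and 0.41 within lines. These values are a description. The genes of a library share its depth and scaling, and CGS replicates 2 and 4 are the most alike pair within a line over all genes.

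The genes with the most similar log2 CPM over the 22 libraries were sought among 15892 genes with a mean of at least 5 CPM. The identifiers are given without names, which the tables at hand do not pair with them. For SUT1 they were Os07g0452400 (r = 0.90), Os04g0614600 (0.89) and Os03g0794000 (0.88), and for SWEET11 Os03g0238600 (0.93), Os01g0958200 (0.92) and Os01g0678900 (0.92). SWEET15 was followed most closely by Os03g0729000 (0.93), Os02g0769100 (0.92) and Os03g0273800 (0.92), and GIF1 by Os03g0183900 (0.88), Os10g0498500 (0.88) and Os10g0148100 (0.87). Among the sucrose synthase genes, Os03g0401300 was most like Os08g0137250 (0.89), Os11g0310800 (0.88) and Os09g0544400 (0.87). Os06g0194900 had the lowest likeness, with Os08g0531300 (0.85), Os02g0601300 (0.84) and Os06g0247500 (0.83). Os07g0616800 was most like Os03g0785800 (0.94), Os05g0376600 (0.93) and Os07g0182900 (0.90). None of the 7 genes was among the 3 most similar to another of them.

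On deviations from line means the 3 most similar genes were others, except Os05g0376600 for Os07g0616800 (0.93). They were Os07g0691600 (0.90), Os05g0531200 (0.87) and Os05g0458400 (0.87) for SUT1. For SWEET11 they were Os04g0609600 (0.92), Os05g0319100 (0.91) and Os10g0503800 (0.90), and for SWEET15 Os03g0374600 (0.94), Os02g0206700 (0.93) and Os05g0572700 (0.91). GIF1 was then most like Os03g0788600 (0.88), Os06g0167600 (0.87) and Os04g0679100 (0.86). Os03g0401300 had the closest likeness of all, with Os01g0348700 (0.95), Os03g0424800 (0.95) and Os05g0477300 (0.94), ahead of Os06g0194900 with Os01g0817700 (0.88), Os02g0519900 (0.86) and Os05g0513900 (0.85). The other genes most like Os07g0616800 were Os12g0601300 and Os09g0241100 (0.93 each).

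A wider list of 48 genes of sucrose and hexose supply held other sucrose transporters, SWEET genes, invertases, sucrose synthases and sucrose phosphate synthases. It also held UDP-glucose pyrophosphorylases, fructokinases, hexokinases and monosaccharide transporters. It was written from general knowledge of identifiers that no annotation at hand could check, so only the whole list is described. In the mean difference with HaSSA, 1 of its 42 tested genes rose and 2 fell (12.3% of all genes were called), with a median of 0.00, which is also that of all genes. In CGS against Taipei 1 rose and 2 fell (3.69% of all genes called, median 0.16), and in SAT against Taipei 1 rose and 0 fell (0.69% of all genes called, median 0.12). In SAT × SSA against SAT 0 rose and 1 fell (4.25% of all genes called, median 0.01), and in CGS × SSA against CGS 2 rose and 0 fell (3.87% of all genes called, median -0.10). The summed level of the list was steady, at 1882 to 2119 CPM in Taipei and 1931 to 2232 CPM over the libraries of the transgenic lines. Its most abundant genes, with mean levels of 514 and 324 CPM, weigh most in this sum, which says little about genes with low levels.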

How the data were processed

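Strand-specific reads of rRNA-depleted seed RNA were aligned by the authors to IRGSP-1.0, the rice assembly, using STAR 2.7.1a, per the labels and the study's methods. For 38866 genes, the deposited count of uniquely aligned reads, not normalized, comes in 3 columns (unstranded, sense and anti-strand), and the anti-strand counts were used, as in the study. The 4 totals of reads counted for no gene (unmapped, multimapping, without a feature and ambiguous) were left out of library sizes. Transgene reads were not analysed here. Counts were scaled with TMM, filtered with filterByExpr by line (26821 genes) and tested with the robust quasi-likelihood test of edgeR 4.0.16 under R 4.3.3, in 1 fit of 22 libraries with the line as the factor. The 12 comparisons are two-sided, with Benjamini-Hochberg adjustment over all genes and a threshold of 0.01, and intervals are 95% intervals. Alternatives were DESeq2 1.42.0, RLE size factors, no TMM, no filter, unstranded counts, a threshold of 0.05, a replicate block, only the groups compared, and leaving out each library. Leaving out CGS replicates 2 and 4 together was chosen after seeing the data. The 7 genes are named in every comparison, with the 3 genes of highest Pearson r by log2 CPM (prior of 1) and by deviations from line means. The genes and lists were chosen with earlier results of these data known. Marker lists were written from general knowledge and not checked against an annotation. Levels per transcript length were planned but not computed, because no lengths were used here. Sequences and positions are not given.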

Additional observations from a re-analysis of the deposited data

Results flagged for a closer look

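GIF1 in Taipei replicate 2 (56.5 CPM) lay far from the other 3 Taipei libraries (82.1 to 83.6 CPM). Its gap to the nearest library was 0.946 of the whole range of the line, above the 95% critical value of Dixon's test for 4 samples. It was the 1 sample set apart in 21 groups of 4 or 5 libraries that were looked at, where chance alone sets apart about 1 in 20. GIF1 was called in the mean difference with HaSSA in each of the 22 fits that left out 1 library, this one among them.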

How the results depend on the processing

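Over 12 comparisons, 7 genes and all alternatives, 1473 of 1512 values stayed on their side of the threshold, 34 lost a call, 5 gained one and 0 reversed, while 70 values changed sign without a call in either fit. For the mean difference with HaSSA, 1 gene was called without TMM (38.5% of all genes) in place of 4 (12.3% of all genes). The cause was not tested beyond the shift of the median of all genes. For CGS against Taipei, 0 genes were called in place of 1 with only the groups compared and without CGS replicates 2 and 4, and 0 to 1 without 1 library. For SAT × SSA against SAT, 1 gene was called in place of 2 with only the groups compared, and 0 to 2 without 1 library. For CGS × SSA against CGS, 1 gene was called in place of 0 at a threshold of 0.05, with DESeq2 and without TMM (9.06%, 6.02% and 4.37% of all genes). Without 1 library, 0 to 1 was called (called without CGS replicate 1). Depth set no limit here, since each gene had at least 1517 reads in every library, and the 3 to 5 plants of a line set the precision. The replicate numbers were not used as pairs in the main fit. Over 48 pairs of libraries with the same number, the correlation of deviations ran from -0.59 to 0.38 and was over 0.1 in 14. Pairs with different numbers were not computed, so these values cannot decide whether the numbers pair the samples. With the number as a replicate block, 4 genes were called in the mean difference with HaSSA, 2 in SAT × SSA against SAT, 1 in CGS against Taipei and 0 in the other 9 comparisons, the same counts as without the block. The shares of all genes called were not computed for fits with the block, with only the groups compared or with libraries left out.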
